A study of Mus musculus with 14 samples.

Results

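Glycolysis and the hypoxia response were followed through 36 genes, chosen by name for their known roles. They are 22 glycolytic enzymes and transporters and 14 other genes that the hypoxia-inducible factors (HIFs) are known to induce or that make up the HIF pathway itself. All 36 were found by symbol in the count and the TPM tables of both experiments, which list 53278 genes each, and all 36 passed the filter on low counts in both. The data are bulk RNA-seq of mouse lung group 2 innate lymphoid cells (ILC2s), the tissue lymphocytes that answer the alarmin cytokines IL-33 and IL-25 with type 2 cytokines. Cells were sorted as live, lineage-negative, CD90.2+ and CD3-, and about 15000 cells were plated per sample. In the stimulation experiment, ILC2s of B6 mice were left unstimulated (4 libraries) or given IL-33 at 20 ng/mL for 24 h (4 libraries). The labels and methods describe the unstimulated cells as kept in medium, over the same 24 h by the design text and methods, whereas the study elsewhere calls them ex vivo, and if they were not cultured, culture and IL-33 cannot be told apart. In the Blimp-1 experiment, 3 Control libraries (ControlIL7RaCre) were set against 3 Blimp-1-deficient libraries (Blimp-1IL7RaCre), and all 6 had received 20 ng/mL of IL-33 plus 20 ng/mL of IL-25 for 72 h, to which the study's methods add IL-2. Blimp-1 is the transcription factor encoded by Prdm1. The Cre is driven by the IL7Ra gene, which is active in all lymphoid lineages, so the deletion was directed to T, B and NK cells and to all ILCs of these mice and not to ILC2s alone. The culture times, cytokines and genotypes differ between the experiments, and their values are not compared directly.

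Glycolysis splits glucose into pyruvate in the cytosol. Glucose enters through transporters of the Slc2a family, hexokinase traps it, phosphofructokinase commits it, and lactate dehydrogenase with the monocarboxylate transporters disposes of the pyruvate as exported lactate. HIF-1, a pair of HIF-1a and ARNT, is destroyed after prolyl hydroxylases of the Egln family mark HIF-1a in the presence of oxygen, and when it is stable it induces most glycolytic genes together with genes for mitophagy, blood vessel growth, collagen folding and its own hydroxylases. Activated lymphocytes are known to raise glycolysis even where oxygen is plentiful. The libraries measure mRNA, and neither glycolytic flux nor HIF protein is read from them.

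The libraries held 21939818 to 32791051 counts in the unstimulated group and 10470125 to 32849428 in the IL-33 group, in which replicate 3 was the lowest. The Control libraries held 13570188 (replicate 2) to 76202537 counts and the Blimp-1-deficient libraries 60715362 to 76448945. Values called CPM are TMM-scaled counts per 1000000, and at these depths 3 counts correspond to 0.0310 to 0.731 CPM. A pair of libraries stood apart. In IL-33 replicate 3, a list of 12 neuronal and glial genes, which was put together after its values were seen, summed to 4801 CPM, against a median of 132 CPM over the 4 IL-33 libraries. In Control replicate 2, 76.8% of the counts lay on 7 loci linked to ribosomal RNA, which left 3150795 counts for all other genes, and a list of epithelial, endothelial and stromal markers summed to 4608 CPM there, against 252 and 406 CPM in the other Controls and 599 to 859 CPM in the Blimp-1-deficient libraries. Counts of calls are therefore given with and without these libraries, and so are the genes they move.

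The labelled cell type was checked against its markers. Gata3, the defining transcription factor of ILC2s, lay at 996 to 1043 CPM in the unstimulated and 492 to 692 CPM in the IL-33 libraries, a log2 fold change of -0.69 (adjusted p = 0.00273). Thy1, which encodes the sort marker CD90, was likewise called lower, at -2.52 on the log2 scale (adjusted p = 9.14e-06). Of the 15 ILC2 markers none was at 0, 4 were called higher and 10 lower with IL-33, and their sum went from 8833 to 9948 CPM to 29232 to 47914 CPM. In the Blimp-1 experiment none of the 15 was called with all libraries, and without Control replicate 2, the library described above, 4 were called higher and 4 lower. Some marker lists of other cells fell with IL-33. The summed T cell list went from 230 to 265 CPM to 62.4 to 93.3 CPM, with 8 of its 13 genes called lower and 0 higher. The mast cell and basophil list went from 7.41 to 16.7 CPM to 0.389 to 1.84 CPM, and the stromal list from 581 to 957 CPM to 305 to 540 CPM. The B cell list overlapped, at 27.7 to 34.2 CPM without and 26.2 to 31.9 CPM with IL-33. So did the myeloid list, at 115 to 237 CPM and 80.7 to 186 CPM. Both had 1 gene called higher and 0 lower, and without IL-33 replicate 3 they had 1 higher each, and 2 and 5 lower. The list of 20 cell cycle genes, which marks no cell type, went from 7489 to 7950 CPM to 3858 to 6147 CPM. Their part in the results on the 36 genes was not tested. In bulk samples, fewer cells of a type and less RNA per cell cannot be told apart.

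Most of the 36 genes were higher with IL-33. Between IL-33 stimulated and unstimulated ILC2s, 25 of the 36 (69.4%) were called higher at an adjusted p under 0.05, where 16.2% of all 15466 genes tested were called higher. None of the 36 was called lower, by edgeR or by any alternative, and none had a lower value at an unadjusted p under 0.05. Of all genes 16.1% were called lower by edgeR, 18.2% by DESeq2 (of 17549 given an adjusted p) and 21.3% at an unadjusted p. Among the 22 glycolytic enzymes and transporters 15 were called higher, with a median log2 fold change of 0.96 and a range of 0.01 to 2.68. Among the 14 other HIF targets 10 were called higher, with a median of 0.83 and a range of -0.05 to 3.02. The median over all genes was 0.06. In 24 of the 36 genes every IL-33 library lay above every unstimulated library, which 17.0% of all genes did. The reverse, every IL-33 library below, held for 0 of the 36 and for 20.9% of all genes. With IL-33 replicate 3 left out, 27 of the 36 were called higher, 16 of the glycolytic group and 11 of the HIF group, against 27.5% of all 15733 genes tested, and 0 lower against 29.7%. The median over the 36 then went from 0.91 to 1.00. Of the 25 genes called with all libraries, 16 were called under each of the 19 alternatives. Aldoa, Gapdh, Eno1, Pkm, Ldha and Higd1a lost the call only on the deposited TPM, where the median over all genes was -0.25, and Gpi1, Pdk1 and Ddit4 lost it under further settings given beside them. Without replicate 3 the log2 fold change was 1.16 for Slc2a1, 2.27 for Hk2, 1.52 for Tpi1, 1.27 for Pgk1, 1.63 for P4ha1 and 3.13 for Egln3. Replicate 3 was the lowest of the 4 IL-33 libraries in 23 of the 25 genes called higher, whereas it was the lowest in 55.4% of all genes.

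**Figure D1:**
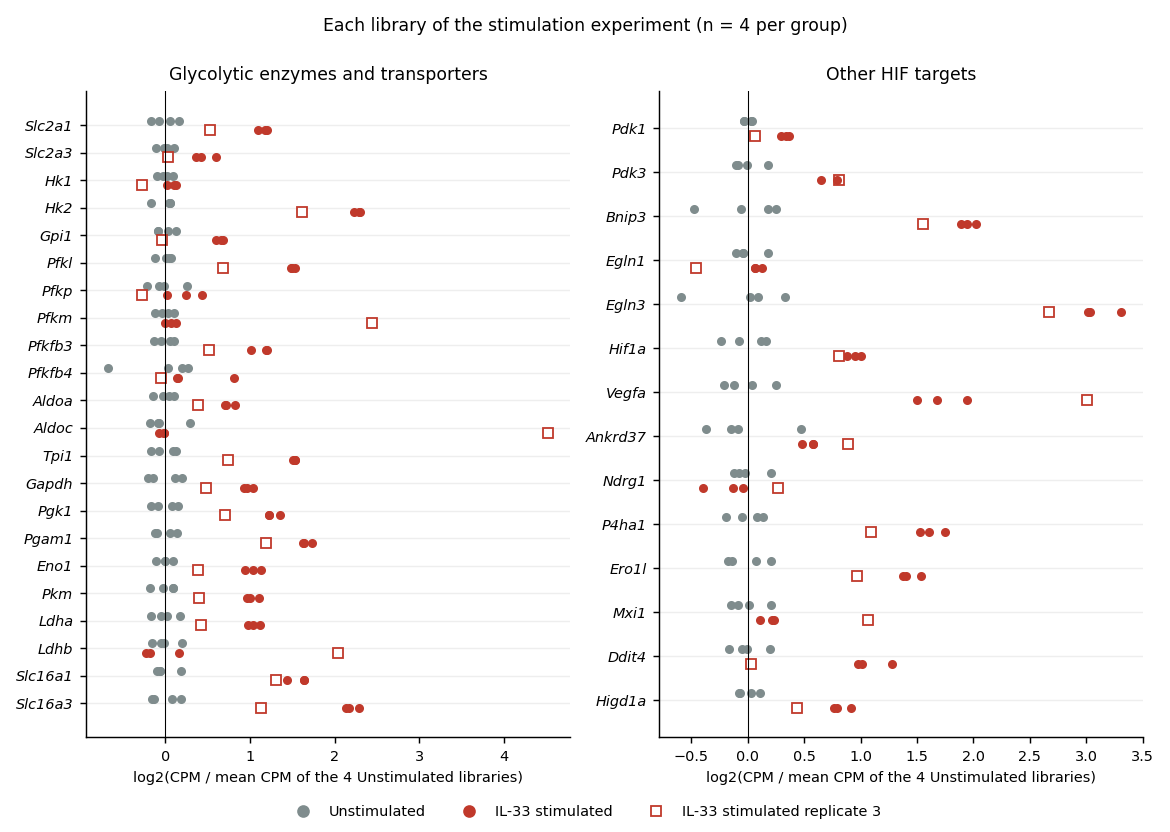
Log2 of the CPM over the mean CPM of the 4 unstimulated libraries, for each of the 36 genes and each of the 8 libraries of the stimulation experiment, one point per library, with an open square for IL-33 replicate 3. Most IL-33 points lie to the right of all unstimulated points, as for Egln3 and Hk2, while replicate 3 is the lowest of its group in 28 of the 36 genes and the highest for Pfkm, Aldoc, Ldhb, Vegfa and Mxi1 among others.

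The 250 bases before the start sites were searched for ACGTG and GCGTG, the letters of the core to which HIF binds, on either strand. RefSeq promoters (GRCm38.p6) matched 34 of the 36 genes, with 50 promoters in all. Slc2a3 and Ndrg1 were not matched. One of these motifs or more stood in 41 of the 50 (82.0%), against 38.6% of all 32851 promoters of this length and 54.4% of those of tested genes. ACGTG stood in 52.0%, against 16.6% of all promoters and 21.0% of those of tested genes. GCGTG stood in 56.0%, against 28.2% and 43.4%. CACGTG, which holds ACGTG on both strands and is also the E-box read by MYC, stood in 12.0%, against 6.02% and 7.97%. Promoters of the genes called higher with IL-33 and of those not called held either motif in 82.4% and 81.3%, ACGTG in 58.8% and 37.5%, and GCGTG in 52.9% and 62.5%, over 34 and 16 promoters. A match is a description of the letters and not a bound site. The promoters of Hk2, Slc16a1, Pgk1, Egln3 and P4ha1 are shown because these genes stand for glucose trapping, lactate export, the lower pathway, HIF-1a hydroxylation and collagen hydroxylation among those that rose. Each is written 5′ to 3′ on the gene's own strand, the last base being the one before the start site. Capitals mark the motif matches, and CACGT and CACGC are ACGTG and GCGTG on the other strand.
Hk2: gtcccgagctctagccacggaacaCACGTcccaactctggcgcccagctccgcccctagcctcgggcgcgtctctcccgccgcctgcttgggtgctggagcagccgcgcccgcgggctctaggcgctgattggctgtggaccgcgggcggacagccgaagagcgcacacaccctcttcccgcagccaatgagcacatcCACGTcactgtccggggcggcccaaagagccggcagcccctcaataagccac
Slc16a1: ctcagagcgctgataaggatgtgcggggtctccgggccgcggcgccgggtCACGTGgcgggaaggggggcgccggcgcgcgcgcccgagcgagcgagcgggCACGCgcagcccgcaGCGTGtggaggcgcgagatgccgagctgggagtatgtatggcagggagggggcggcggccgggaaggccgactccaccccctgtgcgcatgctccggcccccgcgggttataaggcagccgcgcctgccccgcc
Pgk1: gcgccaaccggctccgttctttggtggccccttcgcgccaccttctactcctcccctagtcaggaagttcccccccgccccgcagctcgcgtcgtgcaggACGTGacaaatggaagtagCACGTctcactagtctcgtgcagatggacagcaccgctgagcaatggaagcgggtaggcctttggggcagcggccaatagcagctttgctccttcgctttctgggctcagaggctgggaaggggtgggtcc
Egln3: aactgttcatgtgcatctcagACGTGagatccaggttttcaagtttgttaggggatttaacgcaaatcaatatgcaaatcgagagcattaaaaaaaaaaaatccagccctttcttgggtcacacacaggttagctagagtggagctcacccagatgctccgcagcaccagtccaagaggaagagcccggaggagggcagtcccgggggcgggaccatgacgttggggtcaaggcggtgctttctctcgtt
P4ha1: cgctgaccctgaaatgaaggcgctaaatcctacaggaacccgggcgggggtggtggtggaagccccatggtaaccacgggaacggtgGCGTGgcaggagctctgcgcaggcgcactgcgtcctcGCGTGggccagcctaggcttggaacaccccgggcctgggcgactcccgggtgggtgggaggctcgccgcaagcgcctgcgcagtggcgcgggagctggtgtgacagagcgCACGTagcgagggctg
The windows are chr6:82774455-82774704 on the minus strand for Hk2, chr3:104638414-104638663 on the plus strand for Slc16a1, chrX:106186850-106187099 on the plus strand for Pgk1, chr12:54203875-54204124 on the minus strand for Egln3 and chr10:59323046-59323295 on the plus strand for P4ha1. None of the windows overlaps an annotated exon. The matches begin 226 and 52 bases before the start in Hk2, 150 and 131 in Pgk1, 229 in Egln3 and 163, 126 and 16 in P4ha1, and Slc16a1 holds 4. All the promoters shown hold ACGTG, whereas 58.8% of the promoters of genes called higher do. Those of Tpi1 and Gpi1, also called higher, hold neither motif.

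Among the glucose transporters and hexokinases, Slc2a1 and Hk2 rose with IL-33. Slc2a1 (chr4:119108711-119137983, GRCm38, plus strand) encodes GLUT1, the basal glucose transporter of most cells. It measured 126, 101, 108 and 118 CPM in the unstimulated and 241, 256, 163 and 260 CPM in the IL-33 libraries. The IL-33 libraries all lay above the unstimulated ones, with a log2 fold change of 1.03 (SE 0.15, adjusted p = 0.00161). Slc2a3 (chr6:122727809-122801640, minus strand), for the high-affinity transporter GLUT3, measured 30.1, 32.6, 28.1 and 30.8 CPM in the unstimulated and 45.9, 39.1, 31.2 and 40.8 CPM in the IL-33 libraries. Replicate 3 lay among the unstimulated libraries, and the log2 fold change of 0.37 (SE 0.12, adjusted p = 0.0507) did not pass the threshold, whereas without replicate 3 the log2 fold change of 0.46 did (adjusted p = 0.000489). Hk1, the constitutive hexokinase on mitochondria, ran from 427 to 486 CPM without and from 377 to 499 CPM with IL-33, and its log2 fold change was 0.01 (95% interval -0.22 to 0.23). Hk2 (chr6:82725025-82774454, minus strand), the inducible hexokinase that also binds mitochondria, measured 94.1, 80.8, 94.3 and 93.4 CPM in the unstimulated and 446, 425, 277 and 442 CPM in the IL-33 libraries. The groups were widely separated, with a log2 fold change of 2.13 (SE 0.16, adjusted p = 6.13e-05), and replicate 3, though the lowest of its group, was above all unstimulated libraries.

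At the phosphofructokinase step the liver-type subunit and the enzyme that makes its activator rose. Gpi1, the isomerase that forms fructose 6-phosphate, measured 485, 421, 419 and 458 CPM in the unstimulated and 674, 704, 433 and 717 CPM in the IL-33 libraries. Its IL-33 replicate 3 fell among the unstimulated libraries, and its call, a log2 fold change of 0.50 (SE 0.16, adjusted p = 0.0429), was lost when Unstimulated replicate 3 or IL-33 replicate 1, 2 or 4 was left out, with adjusted p of 0.0963 to 0.119, and by library size alone (0.105), with no filter on low counts (0.137), with the replicate number as a block (0.0599) or on the deposited TPM (0.595 to 0.669), so that it held in 9 of the 19 alternatives. Reads of Gpi1 are partly shared with other annotated genes, at 10.8% of its 75-base stretches. Pfkl, the liver-type subunit, measured 138, 123, 134 and 140 CPM in the unstimulated and 373, 386, 215 and 377 CPM in the IL-33 libraries. No library overlapped, with a log2 fold change of 1.34 (SE 0.18, adjusted p = 0.000939). Pfkp, the platelet-type subunit, was not called, with 190 to 265 CPM against 183 to 300 CPM. Pfkfb3 (chr2:11471433-11554077, minus strand) makes fructose 2,6-bisphosphate, the strongest activator of phosphofructokinase, and measured 25.5, 22.4, 23.8 and 26.2 CPM in the unstimulated and 56.2, 55.6, 35.2 and 49.6 CPM in the IL-33 libraries. Its groups did not overlap, with a log2 fold change of 1.01 (SE 0.15, adjusted p = 0.00170). Its relative Pfkfb4 was low in all libraries, at 1.91 to 3.68 CPM against 2.96 to 5.36 CPM, and was not called.

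From aldolase to pyruvate kinase, 7 genes rose together. Aldoa, the aldolase of muscle and most cells, measured 1734, 1457, 1580 and 1666 CPM in the unstimulated and 2625, 2654, 2101 and 2847 CPM in the IL-33 libraries. It had a log2 fold change of 0.67 (SE 0.12, adjusted p = 0.00372), with no overlap between the groups. Tpi1, which interconverts the triose phosphates, measured 399, 323, 347 and 387 CPM in the unstimulated and 1048, 1050, 609 and 1035 CPM in the IL-33 libraries. The separation was complete, with a log2 fold change of 1.36 (SE 0.18, adjusted p = 0.000917). Gapdh, the dehydrogenase that yields NADH, measured 180, 145, 151 and 191 CPM in the unstimulated and 317, 326, 232 and 341 CPM in the IL-33 libraries. Its log2 fold change of 0.87 (SE 0.14, adjusted p = 0.00252) rests on a gene of which 22.6% of the 75-base stretches also occur in 121 other annotated genes, so its counts are uncertain. Pgk1, the first step that yields ATP, measured 687, 553, 582 and 653 CPM in the unstimulated and 1445, 1445, 1012 and 1583 CPM in the IL-33 libraries. It had a log2 fold change of 1.15 (SE 0.15, adjusted p = 0.000797), and it is the gene with the largest shared share among the 36, 52.8%, so its level is the least certain. Pgam1, the mutase, measured 69.9, 58.3, 59.1 and 65.9 CPM in the unstimulated and 196, 195, 144 and 211 CPM in the IL-33 libraries. Its IL-33 libraries all lay above the unstimulated ones, with a log2 fold change of 1.56 (SE 0.13, adjusted p = 9.09e-05) and 34.9% of stretches shared. Eno1, the main enolase, measured 1043, 910, 979 and 978 CPM in the unstimulated and 1879, 1997, 1280 and 2149 CPM in the IL-33 libraries. It did not overlap, with a log2 fold change of 0.90 (SE 0.16, adjusted p = 0.00352) and 23.0% shared. Pkm, the pyruvate kinase of most tissues, measured 1829, 1515, 1673 and 1818 CPM in the unstimulated and 3338, 3433, 2250 and 3675 CPM in the IL-33 libraries. The groups were again apart, with a log2 fold change of 0.89 (SE 0.16, adjusted p = 0.00428) and 17.8% shared. The gene-level counts do not separate the PKM1 and PKM2 splice forms.

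Genes of lactate production and export rose. Ldha (chr7:46841475-46855627, plus strand), the lactate dehydrogenase subunit that favours lactate, measured 1607, 1268, 1381 and 1445 CPM in the unstimulated and 2812, 2932, 1905 and 3091 CPM in the IL-33 libraries. All 4 IL-33 libraries were above all unstimulated ones, with a log2 fold change of 0.91 (SE 0.17, adjusted p = 0.00390). Slc16a1 (chr3:104638668-104658462, plus strand), which encodes the monocarboxylate transporter MCT1, measured 51.7, 43.4, 43.6 and 42.5 CPM in the unstimulated and 123, 141, 112 and 141 CPM in the IL-33 libraries. The rise had a log2 fold change of 1.51 (SE 0.10, adjusted p = 4.30e-05), and here replicate 3 lay close to its group. Slc16a3 (chr11:120948480-120960868, plus strand), for the low-affinity lactate exporter MCT4, measured 144, 114, 117 and 134 CPM in the unstimulated and 558, 573, 280 and 622 CPM in the IL-33 libraries. Replicate 3 was below the other IL-33 libraries but above every unstimulated one, with a log2 fold change of 2.00 (SE 0.24, adjusted p = 0.000536). Without replicate 3 it was 2.20.

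Pfkm, Aldoc, Ldhb and Mxi1 were high in IL-33 replicate 3 alone. Aldoc, the brain aldolase, stood at 129 CPM there and at 5.34 to 5.59 CPM in the other IL-33 libraries, so that its log2 fold change of 2.68 (SE 1.15, adjusted p = 0.110) became -0.03 without that library. Pfkm, the muscle-type phosphofructokinase, stood at 150 CPM against 27.7 to 30.3 CPM, and its log2 fold change went from 1.09 to 0.07. Ldhb, the subunit that favours pyruvate, stood at 50.3 CPM against 10.4 to 13.7 CPM, and went from 0.80 to -0.07. Mxi1, a MYC antagonist, stood at 31.5 CPM against 16.3 to 17.7 CPM, and went from 0.46 to 0.19. None of these 4 was called by edgeR with or without the library, which is the one with 4801 CPM of neuronal and glial genes. The part of those genes in the result was not tested.

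Among the HIF pathway genes, the oxygen-labile subunit and 1 of its hydroxylases rose. Hif1a (chr12:73901375-73947530, plus strand) measured 663, 502, 560 and 643 CPM in the unstimulated and 1146, 1091, 1036 and 1185 CPM in the IL-33 libraries. Its groups were apart, with a log2 fold change of 0.91 (SE 0.11, adjusted p = 0.000456). Egln3 (chr12:54178981-54203860, minus strand), the prolyl hydroxylase PHD3 and itself a classic HIF target, measured 12.3, 7.64, 11.6 and 14.4 CPM in the unstimulated and 94.1, 92.8, 73.0 and 114 CPM in the IL-33 libraries. It had the largest change of the 36, a log2 fold change of 3.02 (SE 0.22, adjusted p = 5.59e-05), with every IL-33 library far above every unstimulated one. Egln1, the main oxygen sensor PHD2, stood at 132 to 161 CPM against 104 to 155 CPM, with a log2 fold change of -0.03 (95% interval -0.34 to 0.28).

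The genes that turn pyruvate away from mitochondria or act on mitochondria also rose. Pdk1, a kinase that switches off pyruvate dehydrogenase, measured 83.0, 82.9, 86.8 and 86.2 CPM in the unstimulated and 107, 109, 88.5 and 104 CPM in the IL-33 libraries. The change was small, a log2 fold change of 0.27 (SE 0.08, adjusted p = 0.0272), and the call was lost when Unstimulated replicate 3 or IL-33 replicate 1, 2 or 4 was left out, with adjusted p of 0.0694 to 0.0914, and by library size alone (0.246), with no filter (0.179) or with the replicate block (0.09996), while on deposited TPM, where it was not called either, the value was -0.06 against a median over all genes of -0.25. Pdk3, another kinase of the same family, measured 42.0, 34.9, 36.8 and 34.3 CPM in the unstimulated and 58.0, 64.4, 64.7 and 64.2 CPM in the IL-33 libraries. It did not overlap, with a log2 fold change of 0.76 (SE 0.09, adjusted p = 0.000382). Bnip3, a receptor for the removal of mitochondria, measured 23.0, 14.6, 19.5 and 24.3 CPM in the unstimulated and 75.3, 78.4, 59.8 and 82.4 CPM in the IL-33 libraries. The groups were well separated, with a log2 fold change of 1.86 (SE 0.18, adjusted p = 0.000180), though 34.4% of its stretches are shared with other genes. Higd1a, a small hypoxia-induced protein of mitochondria, measured 53.2, 47.0, 46.9 and 50.4 CPM in the unstimulated and 93.1, 84.0, 66.7 and 85.3 CPM in the IL-33 libraries. It rose with a log2 fold change of 0.74 (SE 0.11, adjusted p = 0.00136), and its reads are partly shared with other annotated genes.

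Of the secretory and signalling HIF targets, P4ha1, Ero1l, Vegfa and Ddit4 were called higher. P4ha1, a collagen prolyl hydroxylase subunit, measured 52.7, 42.1, 46.5 and 50.9 CPM in the unstimulated and 139, 146, 103 and 161 CPM in the IL-33 libraries. No library overlapped, with a log2 fold change of 1.51 (SE 0.14, adjusted p = 0.000179). Ero1l, the oxidase that drives disulfide formation in the endoplasmic reticulum, measured 690, 594, 582 and 757 CPM in the unstimulated and 1698, 1737, 1280 and 1904 CPM in the IL-33 libraries. It was the most abundant gene of the HIF group and rose with a log2 fold change of 1.34 (SE 0.15, adjusted p = 0.000360). Vegfa (chr17:46016993-46032369, minus strand), the growth factor of blood vessels, measured 4.41, 4.67, 5.23 and 6.05 CPM in the unstimulated and 16.3, 14.4, 41.0 and 19.5 CPM in the IL-33 libraries. Its groups were apart, with a log2 fold change of 2.16 (SE 0.35, adjusted p = 0.00232), and replicate 3 was the high library, so that without it the log2 fold change was 1.72. Ddit4, an inhibitor of mTORC1, measured 89.2, 79.9, 86.3 and 102 CPM in the unstimulated and 175, 180, 91.4 and 217 CPM in the IL-33 libraries. Replicate 3 lay among the unstimulated libraries, and the call, a log2 fold change of 0.89 (SE 0.24, adjusted p = 0.0219), was lost when Unstimulated replicate 3 or IL-33 replicate 1, 2 or 4 was left out (adjusted p of 0.0556 to 0.0652), and on the deposited TPM. Ankrd37 was low, at 3.69 to 6.62 CPM against 6.69 to 8.87 CPM, with a log2 fold change of 0.64 (SE 0.23, adjusted p = 0.0638), which passed by edgeR without replicate 3 (adjusted p = 0.0335). Ndrg1, a stress-induced gene, ran from 14.7 to 18.4 CPM against 12.2 to 19.3 CPM and was not called.

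**Figure D2:**
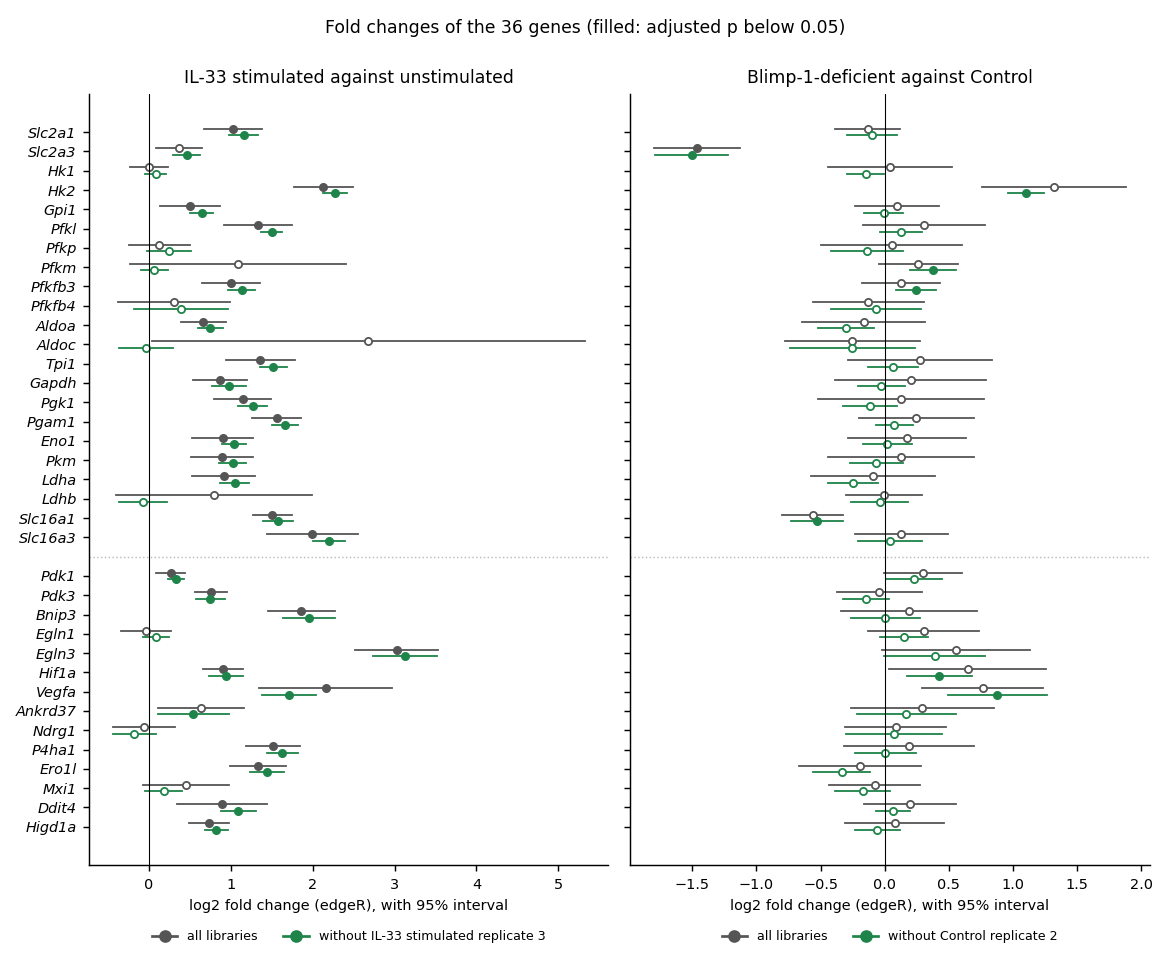
Log2 fold changes of the 36 genes with 95% intervals, in grey from all libraries and in green without IL-33 replicate 3 (left panel) or Control replicate 2 (right panel), filled where the adjusted p is below 0.05. With IL-33 the values run from -0.05 to 3.02, and in Blimp-1-deficient cells from -1.47 to 1.32, with 1 filled grey point, Slc2a3.

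Levels of different genes can be set against each other only per length, as TPM. In the unstimulated cells Aldoa (1500 ± 92.9 TPM, SD, n = 4), Ldha (1488 ± 112) and Pkm (1182 ± 94.8) were the highest of the 36, and without replicate 3 the IL-33 group had 2042 ± 11.6, 2489 ± 25.5 and 1947 ± 13.5 TPM (n = 3). Ldha was thus above Aldoa in these IL-33 libraries, whereas in the unstimulated cells the pair did not differ beyond their spread. The places of Pgk1 (863 to 1034 TPM in the unstimulated cells, 52.8% of stretches shared) and Gapdh (123 to 164 TPM, 22.6%) are less certain. The hexokinases were lower than Aldoa, Ldha and Pkm. Hk1 stood at 185 ± 6.88 TPM and Hk2 at 52.6 ± 3.84 TPM without IL-33, and at 159 ± 12.4 and 205 ± 10.1 TPM with it. Slc2a1 rose from 112 ± 9.12 to 202 ± 4.84 TPM, while Slc2a3 stood at 14.5 ± 1.06 and 16.2 ± 1.85 TPM. Summed over the 22 glycolytic genes, the unstimulated libraries held 7668, 6748, 7280 and 7883 TPM and the IL-33 libraries 12558, 12564, 8104 and 12493 TPM. Every IL-33 sum was above every unstimulated one, with a ratio of the means of 1.55, or 1.70 without replicate 3. The 14 other HIF targets summed to 1381, 1222, 1284 and 1524 TPM and to 2434, 2391, 1728 and 2473 TPM. Their ratio of means was 1.67, or 1.80 without replicate 3.

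**Figure D3:**
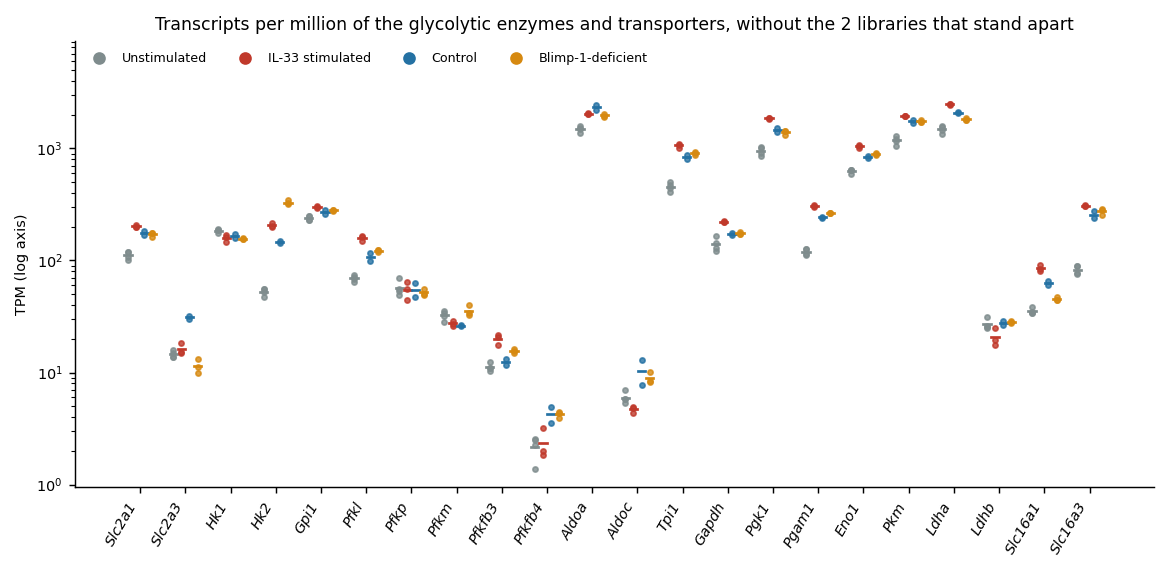
Deposited TPM of the 22 glycolytic genes, from transporters to lactate export, on a log axis, with one point per library, a bar at each group's mean and IL-33 replicate 3 and Control replicate 2 left out. Aldoa, Ldha and Pkm are among the highest in all groups, Hk2 passes Hk1 with IL-33, and Slc2a3 is lower in Blimp-1-deficient than in Control libraries.

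Pairs of related genes were compared within each library as log2 ratios of TPM, which do not depend on how libraries are scaled. The 10 pairs were tested between the IL-33 and the unstimulated group with a two-sided exact permutation test, which at 4 against 4 cannot go below p = 0.0286. Hk2 over Hk1 went from -1.82 ± 0.06 to 0.29 ± 0.16 (SD, n = 4), so that in TPM Hk2 moved from the lower to the higher hexokinase transcript. In CPM, which is not scaled to gene length, Hk1 stayed the higher in each IL-33 library. Hk1 measured 499, 491, 377 and 465 CPM there, and Hk2 446, 425, 277 and 442 CPM. Egln3 over Egln1 went from -3.23 ± 0.39 to -0.14 ± 0.12. Pfkp over Pfkl went from -0.29 ± 0.14 to -1.47 ± 0.23, Slc2a1 over Slc2a3 from 2.94 ± 0.19 to 3.59 ± 0.17, and Pdk1 over Pdk3 from -0.40 ± 0.15 to -0.91 ± 0.18. In these 5 pairs no library overlapped and the exact p was the smallest possible, which becomes 0.0571 after Benjamini-Hochberg adjustment over the 10 pairs. The other 5, Slc16a3 over Slc16a1, Pfkfb3 over Pfkfb4, Pfkm over Pfkl, Aldoa over Aldoc and Ldha over Ldhb, had adjusted p of 0.143 to 1. Without replicate 3 the first 5 pairs differed by 2.19, 3.07, -1.26, 0.70 and -0.42 and still did not overlap. Of the other 5, all but Pfkfb3 over Pfkfb4 stopped overlapping without replicate 3. Slc16a3 over Slc16a1 then differed by 0.63, from 0.43, Pfkm over Pfkl by -1.43, Ldha over Ldhb by 1.13 and Aldoa over Aldoc by 0.78, the last turned from -0.45.

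**Figure D4:**
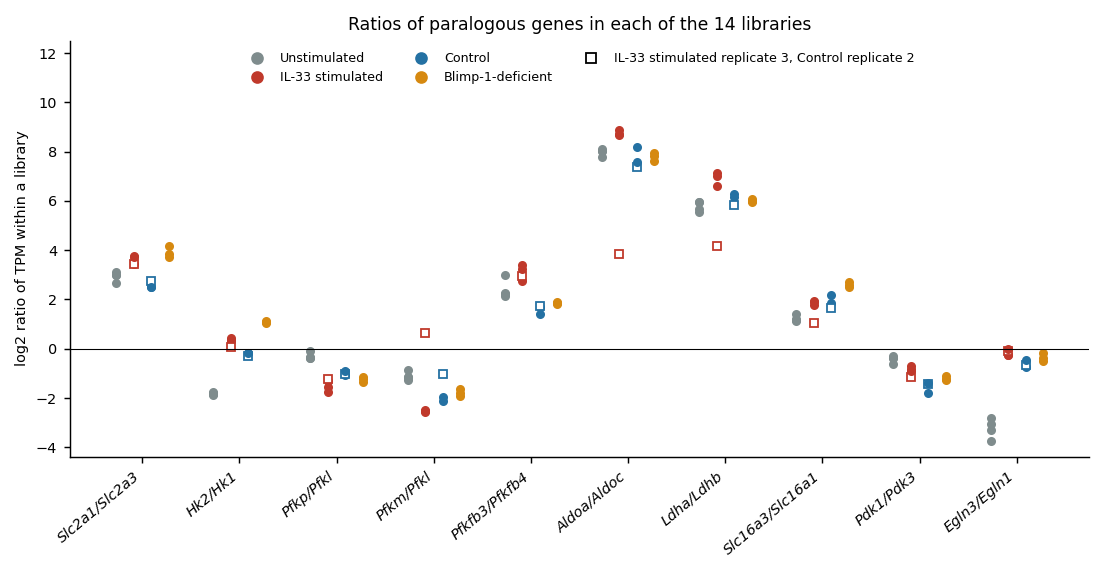
Log2 ratio of TPM within each library for 10 pairs of related genes, one point per library in all 4 groups and an open square for IL-33 replicate 3 and Control replicate 2. Hk2 over Hk1 lies below 0 in all unstimulated and above 0 in all IL-33 stimulated libraries, and it is above 0 in the Blimp-1-deficient but below 0 in the Control libraries.

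Genes of the same pathways outside the 36 did not move in 1 direction with IL-33. Of 43 further carbohydrate genes 33 could be tested, and 7 were called higher (21.2%) and 4 lower (12.1%), near the 16.2% and 16.1% of all genes, with a median log2 fold change of 0.08. Without replicate 3 these were 11 and 10, against 27.5% and 29.7% of all genes, with a median of -0.12. Of the genes called, the largest rises were those of Slc2a6, a lysosomal hexose transporter, Tigar, which lowers fructose 2,6-bisphosphate, and Bsg, the chaperone of MCT1 and MCT4. Slc2a6 went from 2.85, 3.49, 2.38 and 3.37 CPM to 34.5, 43.2, 25.6 and 50.9 CPM, with no overlap and a log2 fold change of 3.67 (SE 0.25, adjusted p = 4.27e-05). Tigar had a log2 fold change of 1.26 (SE 0.19, adjusted p = 0.00170), and Bsg a log2 fold change of 1.01 (SE 0.14, adjusted p = 0.00117). Ldhd, Slc16a7 and Rpia were lower, with log2 fold changes of -1.33, -1.31 and -0.59. Of 14 HIF subunits and regulators, Cul2 (0.76) and Eloc (0.63), both parts of the ligase that removes HIF-1a, were higher, and Epas1 (-0.53), which encodes HIF-2a, and Cited2 (-0.47), an inhibitor of HIF, were lower. This is 14.3% in each direction. Without replicate 3 there were 4 calls higher (28.6%) and 5 lower (35.7%), against 27.5% and 29.7% of all genes. Of 35 further HIF targets 33 could be tested, with 13 called higher (39.4%) and 8 lower (24.2%) and a median of 0.22. The shares of all genes were 16.2% and 16.1%. Without replicate 3 the calls were 15 (45.5%) and 9 (27.3%), against 27.5% and 29.7% of all genes, and the median was 0.16. Among those called, P4ha2 (2.94), Car12 (2.19) and Tfrc (1.77) had the largest rises, and Nt5e (-1.62), Stc2 (-1.61) and Lox (-1.20) the largest falls. Of the genes named from these lists, Ldhd, Rpia, Cited2 and Lox lost their call in 4, 1, 8 and 5 of the 19 alternatives.

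In the Blimp-1 experiment Prdm1 was checked first. It measured 75.2, 92.8 and 74.0 CPM in the Control and 14.6, 11.5 and 11.4 CPM in the Blimp-1-deficient libraries, with a log2 fold change of -2.68 (SE 0.15, adjusted p = 0.00441). No library went against its label, though the call held in 10 of the 19 alternatives and the value was below 0 in all of them. Of the 36 genes 1 was called lower, where 0.306% of all 17335 genes were, and 0 higher, where 0.450% were. At an unadjusted p under 0.05, 3 of the 36 were higher, against 6.17% of all genes, and 2 lower, against 5.78%. DESeq2 called 2 higher and 2 lower, against 2.98% and 2.92% of the 18328 genes to which it gave an adjusted p. In 3 of the 36 every Blimp-1-deficient library lay above every Control, against 11.8% of all genes, and in 3 every one lay below, against 10.8%, so these shares did not exceed the background. With Control replicate 2 left out, 5 of the 36 lay above and 8 below, beside 4374 and 4697 of all 17968 genes. With all libraries the median log2 fold change was 0.11 over the glycolytic genes, 0.19 over the other HIF targets and -0.02 over all genes. These medians were -0.05, 0.07 and 0.01 with Control replicate 2 left out. Without Control replicate 2, 5 of the 36 were called higher, against 8.25% of all 17968 genes, and 2 lower, against 5.72%. The glycolytic genes gave 3 and 2 of these calls and the other HIF targets 2 and 0. Control replicate 2 was the lowest Control in 28 of the 36 genes, whereas it was the lowest in 50.2% of all genes.

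**Figure D5:**
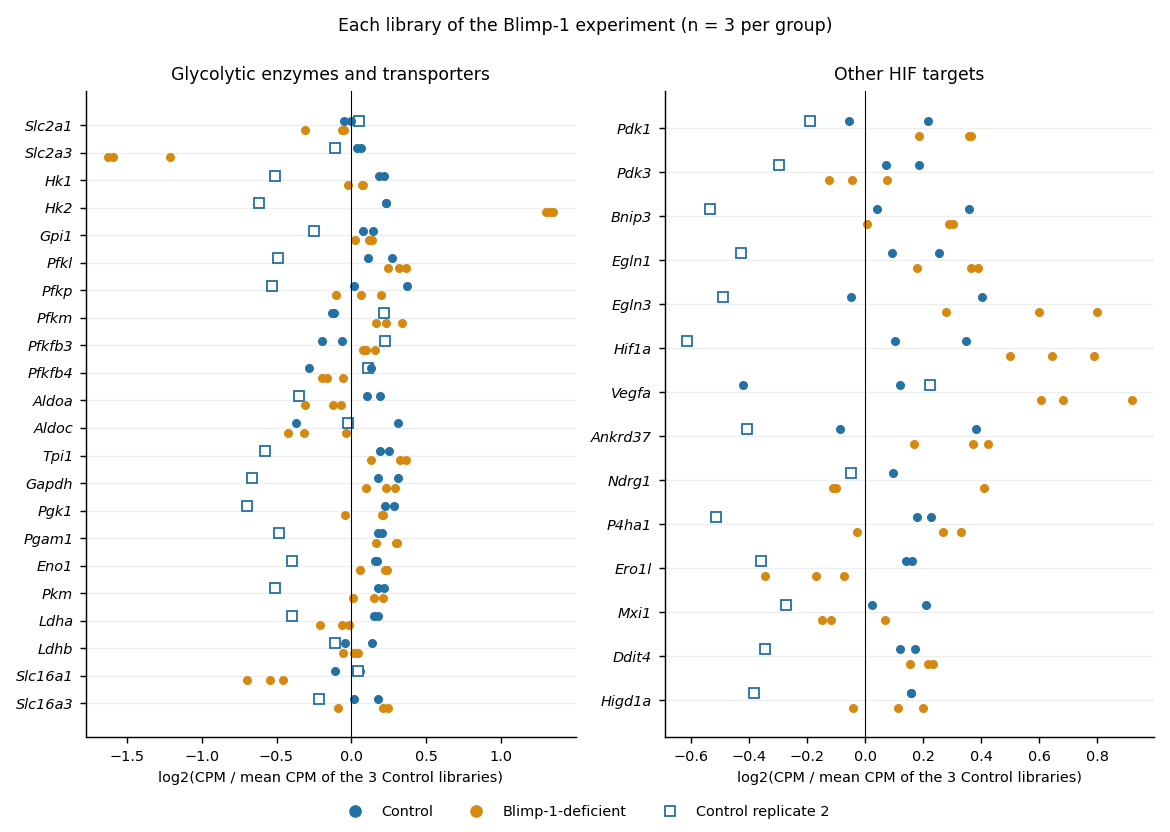
Log2 of the CPM over the mean CPM of the 3 Control libraries, for each of the 36 genes and each of the 6 libraries of the Blimp-1 experiment, one point per library, with an open square for Control replicate 2. Slc2a3 lies lower and Hk2 higher in all 3 Blimp-1-deficient libraries, while most other genes overlap and Control replicate 2 is the lowest Control in 28 of the 36.

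Of the 4 transporters among the 36 genes, Slc2a3 was called lower without Blimp-1. Slc2a3 measured 58.5, 52.6 and 59.5 CPM in the Control and 18.9, 24.6 and 18.4 CPM in the Blimp-1-deficient libraries. It was the 1 gene of the 36 called with all libraries, with a log2 fold change of -1.47 (SE 0.14, adjusted p = 0.0199), and the groups were far apart. Without Control replicate 2 the log2 fold change was -1.51 (adjusted p = 0.00124), but leaving out any other single library took the adjusted p to between 0.0535 and 0.172, and on the deposited TPM, of which 93.9% lay on the ribosomal RNA-linked loci in Control replicate 2, the value was 0.0096 against a median over all genes of 1.28. With these loci taken out of the TPM it was -0.95 (adjusted p = 0.621 by limma). The call was also lost by library size alone (0.868) and with the replicate block (0.110), and it held in 8 of the 19 alternatives. Slc16a1 measured 76.8, 76.2 and 68.4 CPM in the Control and 45.5, 53.7 and 50.7 CPM in the Blimp-1-deficient libraries. No library overlapped, and the log2 fold change of -0.56 (SE 0.10, adjusted p = 0.0712) did not pass, while without Control replicate 2 the value of -0.53 did (adjusted p = 0.00987). The other transporters stayed near the Controls. Slc2a1 measured 159, 170 and 164 CPM in the Control and 133, 158 and 159 CPM in the Blimp-1-deficient libraries. These values lay below the Controls by a narrow margin, with a log2 fold change of -0.10 without Control replicate 2 (95% interval -0.30 to 0.09). Slc16a3 overlapped and had a value of 0.04 (95% interval -0.21 to 0.29) in the same comparison.

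Hk2 had the largest difference upward of the 36 genes in Blimp-1-deficient against Control cells. It measured 229, 127 and 228 CPM in the Control and 479, 488 and 496 CPM in the Blimp-1-deficient libraries. The 3 Blimp-1-deficient libraries lay close together above all Controls, of which replicate 2 was the lowest. The log2 fold change of 1.32 (SE 0.23, adjusted p = 0.0719) missed the threshold, whereas DESeq2 (adjusted p = 1.26e-05) and edgeR without Control replicate 2 (log2 fold change 1.10, adjusted p = 0.000251) passed it. Hk1 was at 364, 225 and 372 CPM against 315, 339 and 337 CPM, and was not called. By edgeR, Pfkm and Pfkfb3 passed without Control replicate 2 and not with it, and that library was their highest Control. Pfkm measured 20.3, 25.6 and 20.1 CPM in the Control and 27.8, 24.7 and 25.8 CPM in the Blimp-1-deficient libraries, and its log2 fold change of 0.26 became 0.38 (adjusted p = 0.0206). Pfkfb3 measured 23.5, 31.4 and 25.8 CPM in the Control and 28.4, 28.8 and 30.0 CPM in the Blimp-1-deficient libraries, and its value of 0.13 became 0.25 (adjusted p = 0.0497).

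Hif1a and Vegfa were the HIF genes that stood apart. Hif1a measured 600, 365 and 711 CPM in the Control and 789, 873 and 964 CPM in the Blimp-1-deficient libraries. The groups did not overlap, the log2 fold change of 0.65 (SE 0.25, adjusted p = 0.385) did not pass, and without Control replicate 2 the value was 0.43 (adjusted p = 0.0409). Vegfa measured 9.04, 14.1 and 13.1 CPM in the Control and 18.4, 19.4 and 22.9 CPM in the Blimp-1-deficient libraries. Here too no library overlapped, with a log2 fold change of 0.76 (SE 0.20, adjusted p = 0.183), and without Control replicate 2 a value of 0.88 (adjusted p = 0.0159). Egln3, at 49.5, 36.5 and 67.8 CPM against 62.2, 77.7 and 89.2 CPM, overlapped and was not called in either fit.

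The remaining glycolytic enzymes were not called without Blimp-1 in either fit. Without Control replicate 2 the 95% intervals of the log2 fold change were -0.45 to -0.05 for Ldha, -0.52 to -0.09 for Aldoa, -0.16 to 0.15 for Gpi1, -0.13 to 0.26 for Tpi1, -0.17 to 0.21 for Eno1 and -0.27 to 0.14 for Pkm. Ldha measured 1817, 1217 and 1780 CPM in the Control and 1389, 1585 and 1536 CPM in the Blimp-1-deficient libraries, and its log2 fold change was -0.25 without Control replicate 2 (adjusted p = 0.0914). Aldoa had the same pattern, with a value of -0.30 (adjusted p = 0.0719), and among the HIF targets Ero1l had -0.33 (adjusted p = 0.0590). These 3 abundant genes were lower in all Blimp-1-deficient libraries than in Controls 1 and 3, and Control replicate 2 was below all of these libraries. In TPM the sums over the glycolytic genes were 10690, 205 and 11453 in the Controls, of which 205 is Control replicate 2, and 10462, 10797 and 10876 in the Blimp-1-deficient libraries, so that the ratio of means of 1.44 was 0.97 without replicate 2. For the other HIF targets the ratio was 1.01 without replicate 2.

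Within-library ratios of TPM are not scaled by the ribosomal RNA in Control replicate 2. With 3 against 3 libraries an exact test cannot pass 0.05, so the ratios are given as values. Slc2a1 over Slc2a3 was 2.58 ± 0.14 in the Controls and 3.91 ± 0.22 in the Blimp-1-deficient libraries (SD, n = 3), and Hk2 over Hk1 was -0.22 ± 0.08 and 1.08 ± 0.04. Slc16a3 over Slc16a1 was 1.90 ± 0.28 and 2.60 ± 0.09. In these 3 pairs the groups did not overlap. They did not overlap either for Pfkp over Pfkl, Pfkfb3 over Pfkfb4 and Pdk1 over Pdk3, with differences of -0.25, 0.25 and 0.33, and they overlapped in the other 4 pairs. Without Control replicate 2 the first 3 differed by 1.41, 1.25 and 0.57, while Pfkm over Pfkl went from -0.09 to 0.25 and Ldha over Ldhb from -0.08 to -0.21, both then without overlap, and Aldoa over Aldoc went from 0.09 to -0.08 and still overlapped. Hk2 was thus the higher hexokinase transcript in Blimp-1-deficient and the lower in Control cells, although all had been activated for 72 h.

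Outside the 36, Slc2a6 was the 1 carbohydrate gene of 36 tested that was called with all libraries. It measured 15.2, 8.28 and 11.5 CPM in the Control and 53.3, 36.5 and 44.7 CPM in the Blimp-1-deficient libraries. It was higher in every Blimp-1-deficient library, with a log2 fold change of 1.90 (SE 0.24, adjusted p = 0.0362). This call held in 8 of the 19 alternatives, each with a value above 0, and was lost when any single library other than Control replicate 2 was left out (adjusted p of 0.0856 to 0.223), by library size alone (0.164), with the replicate block (0.0691) and on the deposited TPM with or without the ribosomal RNA-linked loci (0.393 to 0.642). Without Control replicate 2 the carbohydrate list had 4 genes called higher and 3 lower of 37 tested, led by Slc2a6 (1.76), Ldhd (1.60) and Slc16a7 (1.21) on one side and Bpgm (-0.61), Dlat (-0.35) and Taldo1 (-0.26) on the other. Ldhd and Slc16a7 were at under 5 CPM in all libraries. By edgeR, the HIF subunits and regulators gave 0 calls with all libraries, with 0 higher and 3 lower at an unadjusted p under 0.05, and without Control replicate 2 Hif3a was higher (0.73) and Arnt2 (-0.69) and Cited2 (-0.57) lower. The further HIF targets likewise gave 0 calls, with 10 of 35 higher and 1 lower at an unadjusted p under 0.05, where 6.17% and 5.78% of all genes were. Without Control replicate 2 they had 11 called higher (31.4%) and 3 lower (8.57%), where 8.25% and 5.72% of all genes were called, and a median of 0.22, beside 0.01 over all genes. Nt5e (0.80) was among the rises, and Car12 (-0.68), Il1rl1 (-0.42), the receptor of IL-33, and Insig2 (-0.28) were lower. Of the markers of other cells, the summed T cell list lay at 58.7 to 73.6 CPM in the Controls and 81.2 to 83.5 CPM in the Blimp-1-deficient libraries, and the B cell list at 23.1 to 28.1 and 24.3 to 30.7 CPM, with 0 genes of either list called with all libraries and 2 T cell genes higher and 1 B cell gene lower without Control replicate 2. The stromal list was higher in the Blimp-1-deficient libraries (599 to 859 CPM) than in Controls 1 and 3 (252 and 406 CPM), and without Control replicate 2 its genes gave 4 calls higher and 0 lower, while Col1a1 (1.17), Col1a2 (1.21) and Col3a1 (1.34), the main collagens of fibroblasts, had adjusted p of 0.0928 to 0.103. Lox, the collagen crosslinking enzyme among the further HIF targets, measured 62.5, 902 and 78.9 CPM in the Control and 111, 123 and 175 CPM in the Blimp-1-deficient libraries. Its log2 fold change was -1.34 with all libraries (adjusted p = 0.687) and 0.95 without Control replicate 2 (adjusted p = 0.0209). The part of other cells in these results was not tested.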

How the data were processed

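Lung ILC2s were profiled by bulk RNA-seq in 14 libraries (SMART-seq v4, 75-base paired-end reads). Per the study's methods, reads were trimmed with cutadapt 1.18, aligned to GRCm38 with HISAT2 2.1.0 and counted with Subread. The submitters' notes also list Bowtie2 and mm10. The strand used in counting is not given in the sources used here. The authors deposited raw counts and TPM for 53278 genes. The deposited counts were whole and unscaled. The deposited TPM were scaled to gene length and to 1000000 per library. Columns of values not used numbered 0. Depth ran from 10470125 to 76448945 counts per library.

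The test was the two-sided quasi-likelihood test of edgeR 4.0.16 (R 4.3.3) after TMM scaling and filterByExpr, and p-values were adjusted over all genes tested by the Benjamini-Hochberg method, with a threshold of 0.05. SE and 95% intervals come from its F statistic. The scripts were tested on simulated data. Libraries were grouped by the labels, with no replicate term. The 36 genes, the lists and the rules were chosen with earlier results of these data known. A gene was described in full where it passed the threshold in either fit of an experiment or is the best known of its step, and up to 3 genes per direction were named from each outside list, of which 1 is not reported here. The alternatives were DESeq2 1.42.0, limma 3.58.1 on log2 TPM with pseudocounts of 1 and 0.1, voom with sample weights, other scalings and filters, a replicate block and leaving out each library. Shared stretches are 75-base windows of a gene's exons that occur in another gene's exons (GENCODE M21). The series' design text gives individual mice, while captions in the study describe sorts of pooled animals, so p-values measure the spread between sorted samples.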

Additional observations from a re-analysis of the deposited data

Results flagged for a closer look

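Of 72 groups of 4 libraries (36 genes in the unstimulated and the IL-33 group), 12 held a library that lay apart from the other 3 by more than Dixon's 95% limit, which chance alone gives in about 1 of 20 groups. Of these 12, 9 were in IL-33 replicate 3. Low there were Hk2 (277 CPM, others 425 to 446), Gpi1 (433, others 674 to 717), Pfkl (215, others 373 to 386), Tpi1 (609, others 1035 to 1050) and Egln1 (104, others 149 to 155). High there were Pfkm (150 CPM, others 27.7 to 30.3), Aldoc (129, others 5.34 to 5.59), Ldhb (50.3, others 10.4 to 13.7) and Mxi1 (31.5, others 16.3 to 17.7). In the same library Slc1a2 stood at 1104 CPM, Snap25 at 548 CPM and Mbp at 515 CPM, genes of astrocytes, neurons and oligodendrocytes. Their part in these values was not tested.

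The other 3 were small. Pdk3 was low in IL-33 replicate 1 (58.0 CPM, others 64.2 to 64.7), Slc16a1 high in Unstimulated replicate 1 (51.7 CPM, others 42.5 to 43.6) and Hk2 low in Unstimulated replicate 2 (80.8 CPM, others 93.4 to 94.3).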

How the results depend on the processing

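With IL-33, the glycolytic genes called higher numbered 15, and 9 by limma on log2(TPM + 0.1) and 9 on log2(TPM + 1) with no filter. Their median log2 fold change of 0.96 was 0.55 (0.554, 0.555 and 0.554) in the limma fits on TPM with a pseudocount of 1, of 0.1 and with no filter. That of the other HIF targets, 0.83, was 0.66 by library size alone and 0.46, 0.47 and 0.46 in those limma fits, in which Pdk1 turned to -0.06 (-0.063, -0.065 and -0.063). The median over all genes was -0.25, -0.29 and -0.06 in those limma fits, beside 0.06 in the edgeR fit of all libraries. In the Blimp-1 experiment, the glycolytic genes called higher numbered 0, but 1 by DESeq2, 1 with a mean count of at least 50, 2 by voom and 0 to 3 when each library was left out, and the other HIF targets 0, but 1 by DESeq2, 1 by voom and 0 to 2 with libraries left out. The highest values were those without Control replicate 2. Genes called lower numbered 1, but 2 by DESeq2, 2 by voom, 0 by library size alone, 0 in each limma fit, 0 with the replicate block and 0 to 2 with libraries left out, the 2 again without Control replicate 2. The medians of 0.11 and 0.19 were -0.05 and 0.07 without Control replicate 2, 0.46 and 0.57 by library size alone, 1.71 and 1.73 by limma on log2(TPM + 1) with or without the filter, 1.86 and 1.99 on log2(TPM + 0.1), and 0.56 and 0.69 with the ribosomal RNA-linked loci taken out of the TPM. Over all genes the median was 0.01 without Control replicate 2, 0.45 by library size alone and 0.42 with the loci out. By limma it was 1.28 on log2(TPM + 1) with the filter, 0.34 without it, and 1.69 on log2(TPM + 0.1). Slc2a3 turned to 0.0096 on log2(TPM + 1), with or without the filter, and 0.26 on log2(TPM + 0.1). The causes were not tested. By the series' design text same-numbered libraries came from different mice, and their deviations from the group means correlated at -0.145 to 0.287 in the stimulation and -0.137 to 0.127 in the Blimp-1 experiment, with 5 of 8 and 2 of 6 libraries closest to their own number. With the replicate block, 1802 genes were higher and 1898 lower with IL-33, Gpi1 and Pdk1 lost their call, and 0 genes were called in the Blimp-1 experiment, where the fit without it called 78 and 53. The voom fit that leaves out Control replicate 2, chosen after seeing the data, brought 5 further genes of the 36 past the threshold. Depth limits the low genes, as 3 counts are 0.731 CPM in Control replicate 2.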
